A study of Drosophila melanogaster with 18 samples.

Results

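Removal of the driver of a transgene from an established line was examined by comparing gene expression in UAS-3L* larvae, derived from DNMT3L-expressing flies after the driver had been crossed out, with expression in Tub-3L G5 larvae, in which the driver was present. The comparison was fixed by the group labels alone and took in 4 of the 18 arrays of the series, 2 from each group, and all 16322 probe sets on the array. DNMT3L is a mammalian regulator that binds the tail of histone H3 and stimulates the de novo DNA methyltransferases. Flies have neither DNMT3L nor these methyltransferases, so that any action of the protein in Drosophila has to pass through other partners. In the GAL4/UAS system a gene placed behind UAS sites stays silent until the yeast activator GAL4 is supplied by a second transgene, the driver, and a driver under the tubulin promoter supplies GAL4 in nearly all cells.

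The UAS-3L* larvae carried the FLAG-tagged DNMT3L transgene without tubulin-GAL4, whereas the Tub-3L G5 larvae carried both and came from a line self-crossed in every generation up to generation 5. UAS-3L G5 and UAS-3L G1 larvae likewise had the transgene and no driver, and w1118 is the white-eyed strain into which it had been injected and has no transgene. Tub-3L G4 larvae, with the driver, and Tub-3L G5P larvae, those of generation 5 that bore melanotic tumors, gave arrays outside the main comparison. Tub-3L G1 and G2 larvae, of the first generations with the driver, are used for array distances and marker levels only. All were larvae of the third instar, pooled for RNA, with 2 arrays per group that the labels call biological replicates. No source used here says if the pools came from separate crosses, so that p-values measure the spread between pools, which may be technical. The Tub-3L groups, and UAS-3L* derived from them, rest on 1 insertion line on the second chromosome. No source used here names the line of the UAS-3L G1 and G5 larvae. The driver, on the third chromosome, was removed by crossing to double balancer flies, a stock that had also been used in building the lines, and new chromosomes could enter the pedigree of UAS-3L* at that step.

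The labels of UAS-3L* disagree on what the group is. The title gives Tub-3L G20*, which reads as the driver line at generation 20, while the description gives G5 larvae from which the tubulin driver was removed. The paper calls the larvae UAS-3L* and places the removal after 20 generations, and its name is used here (UAS-3L* G20* in the plots). Genotype and generation could not be checked on the arrays, because no probe set is named here for DNMT3L, GAL4 or white. Drawn from 1 line after 1 removal of the driver, the group also cannot tell loss of the driver apart from the generations and the balancer cross that came with it.

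The median log2 signal was 6.23 and 6.26 on the 2 UAS-3L* arrays and 6.38 and 6.39 on the 2 Tub-3L G5 arrays, and the lower quartiles lay between 4.41 and 4.56. No detection call accompanies the values, and a signal near or under the lower quartile cannot be told from background, so that large folds with one group at that level are uncertain in size. A gene symbol was available for 2392 probe sets, covering 2249 genes, and gene families are described through these members only.

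Marker genes set the groups far apart. The 7 named markers of adult organs (Act88F of flight muscle, Acp26Aa and Acp36DE of the male accessory gland, Vm26Aa of ovarian follicle cells, and Arr1, Arr2 and trp of photoreceptors, out of 16 listed) averaged 3.76 and 3.82 log2 units on the UAS-3L* arrays and 9.78 and 9.94 on the Tub-3L G5 arrays. Their summed linear signal was 109 and 112 in UAS-3L*, against 9741 and 10716 in Tub-3L G5. The opposite held for 7 named larval markers of 17, the 6 salivary glue genes and the larval cuticle gene Lcp65Ag2, whose summed linear signal was 21994 and 21370 in UAS-3L*, against 3488 and 3875 in Tub-3L G5. The glue genes gave nearly all of this signal (21748 and 21103 in UAS-3L*). Lcp65Ag2 was low in Tub-3L G1 too, at 4.02 and 4.15, against 5.31 and 4.79 in Tub-3L G5. High signal of adult organ genes goes against the larval label of the Tub-3L G5 arrays. The UAS-3L* arrays were low in these genes, as were the UAS-3L G5 arrays, whose sums for the adult markers were 100 and 96. The groups with the driver were not alike in adult marker signal. The sums were 123 and 85 in Tub-3L G1 and 115 and 101 in Tub-3L G2, but 6594 and 6626 in Tub-3L G4 and 4131 and 4535 in Tub-3L G5P, so that the larval label is in doubt for these last groups too. The sums of the larval markers were 20015 and 20703 in Tub-3L G1 and 13264 and 13369 in Tub-3L G2. They were 4512 and 4643 in Tub-3L G4 and 101 and 103 in Tub-3L G5P. None of the 6 larval fat body markers is named on the array here. In RNA from whole animals, fewer cells of a type and less RNA per cell cannot be told apart, and the part that stage or tissue content had in the gene differences was not tested.

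Across the array, 3727 of 16322 probe sets (22.8%) were called in UAS-3L* against Tub-3L G5, at a Benjamini-Hochberg adjusted p under 0.05 in limma and a difference of at least 2-fold. Of these, 1724 (10.6% of all tested) were higher and 2003 (12.3%) were lower in UAS-3L*. At the adjusted p alone, 4400 probe sets (27%) were higher and 4890 (30%) were lower. Decreases reached further than increases. A difference of at least 16-fold was seen in 21 probe sets that were higher and in 189 that were lower, with extremes of 6.07 and -8.33 on the log2 scale. Among the 2249 named genes, 186 (8.27%) were called higher and 345 (15.3%) lower, and at the adjusted p alone 544 (24.2%) were higher and 797 (35.4%) lower. These shares are the background for every gene group, since with 9290 of 16322 probe sets past the test a group of a few genes will often contain several. Lack of overlap between the arrays of the 2 groups was also common, in 13072 of 16322 probe sets and in 1871 of the 2249 named genes.

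**Figure D1:**
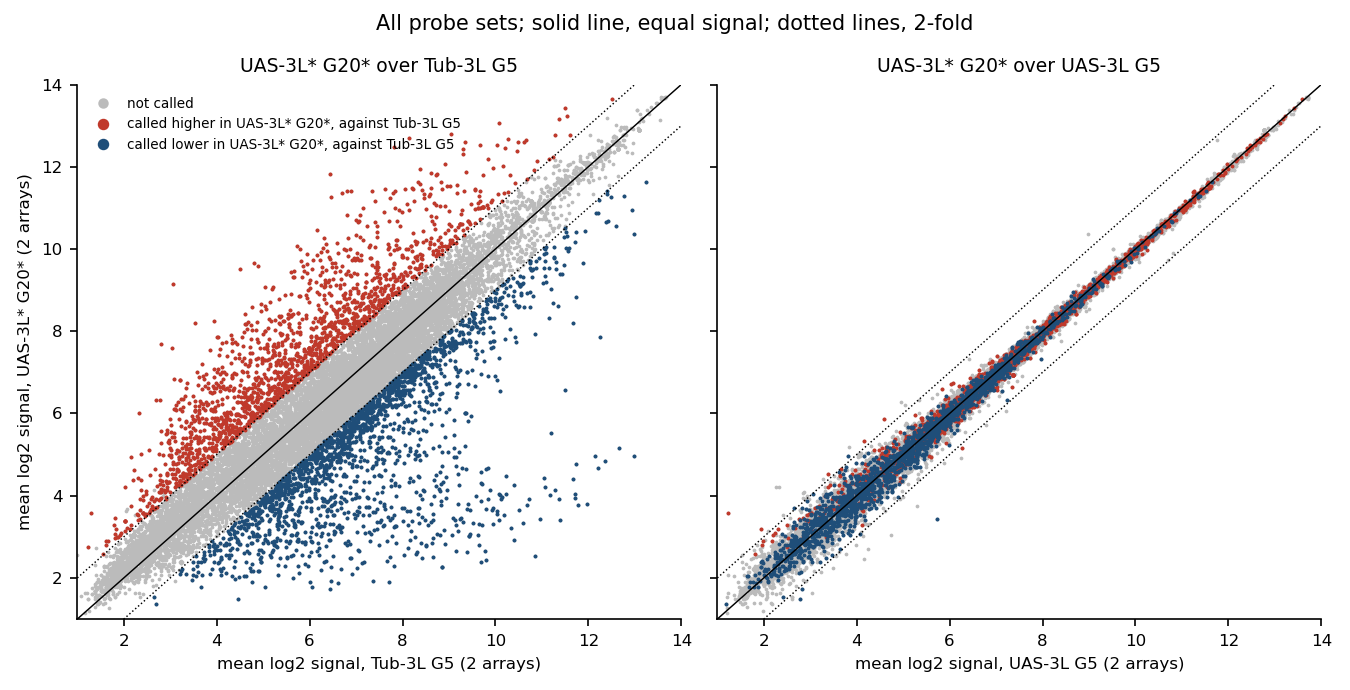
Mean log2 signal of every probe set in UAS-3L* G20* (y axis) against Tub-3L G5 (left, x axis) and UAS-3L G5 (right, x axis), each the mean of 2 arrays. Red points are the 1724 probe sets called higher and blue points the 2003 called lower in UAS-3L* G20* against Tub-3L G5. On the left they spread up to 6.07 above and 8.33 under the line of equal signal, and on the right the same points lie close to that line.

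Genes of muscle were among the steepest decreases. Act88F, the actin of the indirect flight muscles, had log2 signals of 4.03 and 4.08 in UAS-3L*, against 11.63 and 11.82 in Tub-3L G5, a 203-fold difference (log2 -7.67 ± 0.25 SE, adjusted p = 1.76e-10). The signals of Act79B, an actin of adult thoracic and leg muscles, were 3.98 and 3.84 in UAS-3L* and 11.33 and 11.39 in Tub-3L G5 (log2 -7.45, adjusted p = 2.84e-06). Scp1, a sarcoplasmic calcium-binding protein, had 2.86 and 3.82 in UAS-3L* and 10.58 and 10.61 in Tub-3L G5 (log2 -7.26, adjusted p = 3.93e-09). In all of them both UAS-3L* arrays were in the lower quartile of the array while both Tub-3L G5 arrays were in the upper quartile, without overlap. The remaining genes of the list did not follow to that extent. Of 11 named genes of muscle contraction 8 were lower, 1 was higher and 2 did not pass, with a median of -0.51 against 0.02 over all probe sets. The calcium pump SERCA differed by -1.21 and the muscle protein Mp20 by 0.26 on the log2 scale, and Act87E, another muscle actin, had 5.51 and 5.59 in UAS-3L* and 5.57 and 5.50 in Tub-3L G5 (adjusted p = 0.92). The actin genes resemble each other closely in sequence, which limits how well probe sets separate them.

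Genes of the male reproductive tract were low in UAS-3L*. All 10 named members of the accessory gland list passed with lower signal, with a median of -3.77. Acp36DE, a seminal protein needed for sperm storage in the mated female, had log2 signals of 3.64 and 3.65 in UAS-3L*, against 10.48 and 10.52 in Tub-3L G5 (116-fold, adjusted p = 2.46e-11). Acp26Aa, the hormone ovulin that stimulates ovulation, had 1.98 and 1.86 in UAS-3L* and 6.31 and 6.62 in Tub-3L G5 (log2 -4.55). Acp62F, a protease inhibitor of the seminal fluid, followed with a log2 difference of -5.79. No UAS-3L* array came near a Tub-3L G5 array in these genes. The smallest difference of the list, -0.94, was that of Esp, which is expressed at 7.22 and 6.94 in UAS-3L* too and is not known as a seminal protein.

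The ejaculatory duct and bulb list, 6 named genes, had 5 lower and 1 higher member. Mst57Db, one of a cluster of male-specific secreted peptides known from the accessory gland, had 4.2 and 4.6 in UAS-3L*, against 11.59 and 11.74 in Tub-3L G5 (154-fold, adjusted p = 3.42e-09). The signals of Ebp, an ejaculatory bulb protein, were 3.38 and 3.04 in UAS-3L* and 10.26 and 10.40 in Tub-3L G5 (139-fold, adjusted p = 4.25e-10). Gld, the glucose dehydrogenase that also acts in cuticle, went the other way, with 8.22 and 8.34 in UAS-3L*, against 7.30 and 7.12 in Tub-3L G5 (2.10-fold higher). Outside these lists, scpr-B, a secreted protein of the CAP family, was lower by 72.7-fold and Obp56g, an odorant-binding protein gene, by 140-fold.

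**Figure D2:**
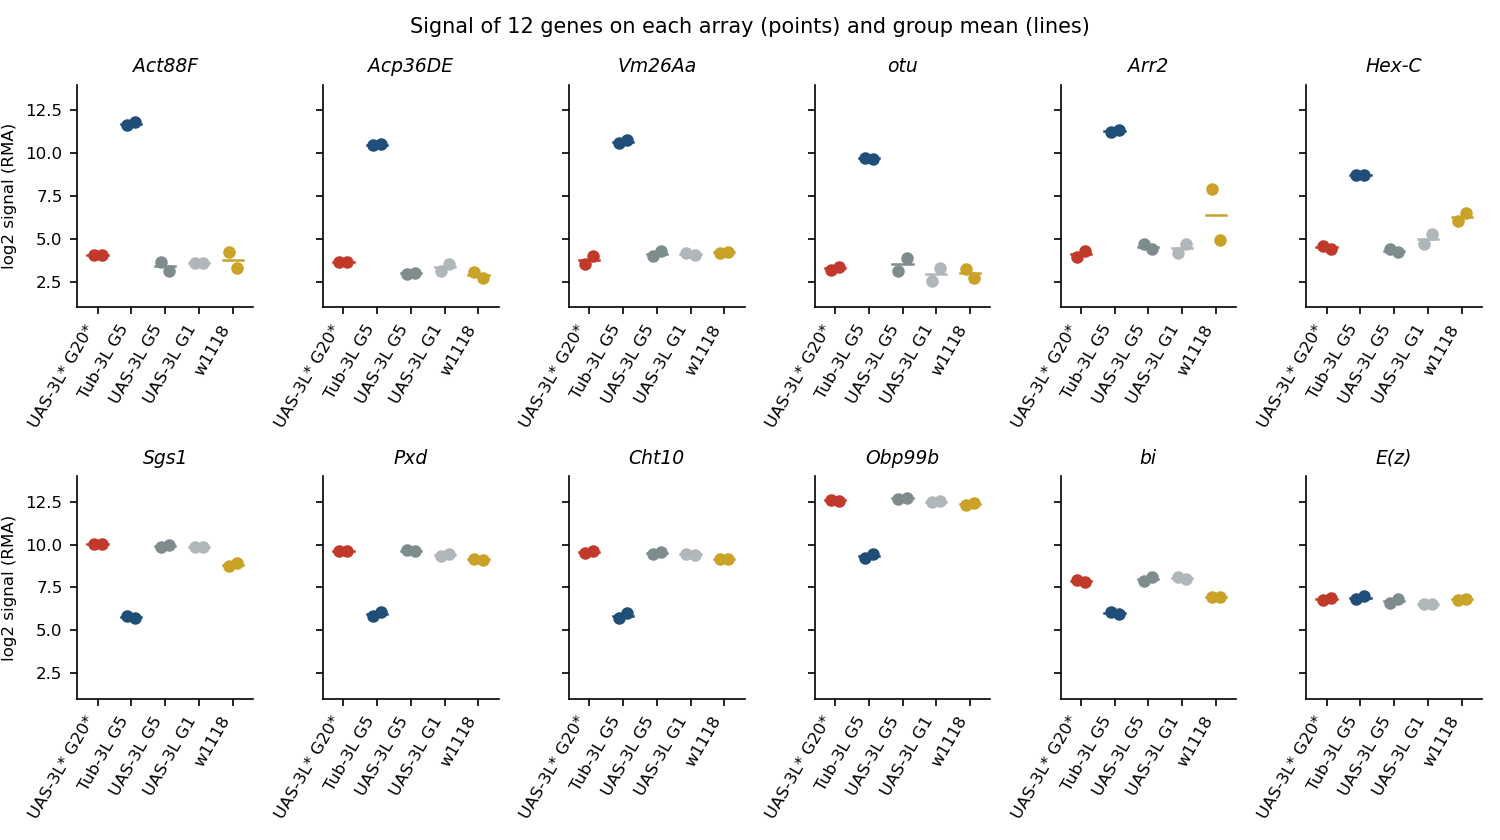
Log2 signal (y axis) of 12 genes on each array (points) with the group mean (line), for UAS-3L* G20*, Tub-3L G5, UAS-3L G5, UAS-3L G1 and w1118 from left to right. Tub-3L G5 stands apart from all other groups in every panel except E(z), above them in the upper row and under them in the first 5 panels of the lower row, and the 2 w1118 arrays differ in Arr2 (7.88 and 4.92).

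Female reproductive genes were likewise low. Vm26Aa, which encodes a protein of the vitelline membrane laid down around the egg by follicle cells, had 3.56 and 4.01 in UAS-3L* and 10.59 and 10.76 in Tub-3L G5 (119-fold, adjusted p = 3.36e-11). Vm34Ca, of the same membrane, had 3.7 and 3.6 in UAS-3L* and 9.97 and 9.88 in Tub-3L G5 (77.3-fold). All 4 named genes of the eggshell and yolk list passed with lower signal, the others, Vm32E and Vm26Ac, by -2.06 and -1.55. Vm26Ac was dim in both groups and lost its call when the second UAS-3L* array (adjusted p = 0.0836) or the second Tub-3L G5 array (adjusted p = 0.0789) was left out.

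Of 9 named genes of the female germline and maternal list 7 were lower, 1 was higher and 1 did not pass. Levels of otu, required for the growth and differentiation of female germ cells, were 3.21 and 3.35 in UAS-3L*, against 9.74 and 9.68 in Tub-3L G5 (86.2-fold, adjusted p = 2.68e-09). The germline gap junction gene zpg had 2.48 and 2.76 in UAS-3L* and 8.33 and 8.32 in Tub-3L G5 (52.2-fold, adjusted p = 1.41e-10). For orb, an RNA-binding regulator of translation in the oocyte, the signals were 6.81 and 6.83 in UAS-3L* and 10 and 10.08 in Tub-3L G5 (9.31-fold). The groups did not overlap in any of these genes, and orb alone among them kept a UAS-3L* signal above the array median. The list member that was higher, Oatp74D, is a transporter for ecdysone rather than a germline gene (8.68 and 8.75 in UAS-3L* and 6.75 and 6.56 in Tub-3L G5), and bgcn did not pass (-0.12, adjusted p = 0.591).

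Genes that act against transposons in the germline showed the same direction. Piwi-interacting RNAs (piRNAs) are transcribed from clusters under the control of deadlock and moonshiner and amplified in the nuage with the help of qin. The 3 named genes of this pathway, del (also counted in the germline list), moon and qin, were lower by 4.98-fold, 6.55-fold and 4.24-fold. The signals of del were 6.46 and 6.5 in UAS-3L* and 8.83 and 8.77 in Tub-3L G5 (adjusted p = 1.00e-09), so that the gene was still above the array median after removal of the driver. By contrast, moon was under the lower quartile in UAS-3L*, at 3.96 and 3.52, against 6.46 and 6.44 in Tub-3L G5.

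Meiosis genes were split. Of 15 named, 7 were lower, 0 were higher and 8 did not pass, with a median of -0.21, where 35.4% of all named genes were lower. The lower ones were led by c(2)M, a component of the synaptonemal complex, with 2.67 and 2.33 in UAS-3L* and 5.52 and 5.51 in Tub-3L G5 (adjusted p = 1.60e-08), by the chromosome segregation kinesin nod (-1.74) and by c(3)G, the transverse filament protein (-1.15). Genes for the start of recombination, mei-W68 and mei-P22, differed by 0.07 and 0.10 and did not pass.

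Sperm genes were also lower for the most part. Of 19 named genes of spermatogenesis, 15 were lower and 2 higher, with a median of -1.18. Mst84Dc, a cysteine-rich protein of the sperm tail, had 7.80 and 7.79 in UAS-3L*, against 10.24 and 10.17 in Tub-3L G5 (5.31-fold, adjusted p = 1.04e-08). The 2 Tub-3L G5 arrays were higher than both UAS-3L* arrays, although the gene was well above the array median in UAS-3L* as well. The 2 higher genes were mia and aly, regulators of the meiotic arrest class that switch on sperm genes in the larval testis, and they differed by 1.19 and 0.65, with aly in the range of background on all 4 arrays.

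Photoreceptor genes formed the next group. In the fly eye, rhodopsin acts through a G protein on phospholipase C and the TRP channels, and arrestins end the response. Of 18 named genes of phototransduction, 14 were lower and 2 higher, with a median of -1.33. Arr2, the major arrestin, had 3.96 and 4.31 in UAS-3L* and 11.25 and 11.32 in Tub-3L G5 (142-fold, adjusted p = 2.68e-06). The channel gene trp had 4.93 and 4.53 in UAS-3L* and 9.11 and 9.20 in Tub-3L G5 (21.5-fold), and Gbeta76C, the G protein subunit of the eye, 4.03 and 4.75 in UAS-3L* and 8.61 and 8.74 in Tub-3L G5 (19.5-fold). Pdh, a dehydrogenase that regenerates the visual pigment, was lower by 72.9-fold, with an SE of 0.88 on the log2 scale. The SE of a gene is taken over all groups, and on the w1118 arrays Pdh was at 7.03 and 2.96 and Arr2 at 7.88 and 4.92. The 2 higher members, santa-maria (2.07) and ninaD (0.85), are scavenger receptors for carotenoid uptake.

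The greatest decrease of any named gene was that of Nplp3, a neuropeptide-like precursor, with 3.54 and 4.07 in UAS-3L* and 11.97 and 11.99 in Tub-3L G5 (289-fold, adjusted p = 6.53e-06). As with the eye genes, the 2 w1118 arrays were unlike each other, at 9.42 and 5.81. The uncharacterized gene CG43101 was lower by 77.0-fold. Among the largest decreases, fit, a gene known for female-biased expression in the fat body of adult heads, had 3.22 and 3.57 in UAS-3L*, against 8.43 and 8.54 in Tub-3L G5 (34.0-fold, adjusted p = 2.06e-10).

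Energy metabolism was lower throughout its 2 lists. Every one of 17 named genes of oxidative phosphorylation was lower, 15 of them at least 2-fold, with a median of -1.39 and a range of -1.73 to -0.95. Cyt-c1, of complex III, had 9.30 and 9.38 in UAS-3L*, against 10.97 and 11.17 in Tub-3L G5 (3.33-fold, adjusted p = 7.02e-09). The beta subunit of ATP synthase, encoded by ATPsynbeta, had 11.32 and 11.29 in UAS-3L* and 12.80 and 12.74 in Tub-3L G5 (2.76-fold). All 11 named genes of glycolysis were also lower (median -0.85). Hex-C, the hexokinase of fat body, had 4.57 and 4.42 in UAS-3L* and 8.70 and 8.75 in Tub-3L G5 (18.7-fold, adjusted p = 1.30e-09), whereas the muscle form Hex-A was lower by 1.74-fold and phosphofructokinase (Pfk) by 2.39-fold. Of the mitochondrial ribosomal proteins, 29 of 59 were lower, 0 were higher and 30 did not pass (median -0.35). Act88F, the named marker of flight muscle, was lower on the same arrays, and the part of muscle content in these differences was not tested.

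DNA replication genes were lower by moderate amounts. Of 28 named, 23 were lower, 0 were higher and 5 did not pass, with a median of -0.76, and 8 differed at least 2-fold. Orc1, the subunit of the origin recognition complex that is limiting for its activity, had 5.97 and 6.42 in UAS-3L* and 8.05 and 8.07 in Tub-3L G5 (3.64-fold, adjusted p = 1.56e-06). The helicase gene dpa (Mcm4) and the ribonucleotide reductase gene RnrL were lower by 2.11-fold and 2.06-fold, which puts both near the threshold. The transcription factor E2f1, which switches on replication genes, had 10.57 and 10.56 in UAS-3L* and 10.56 and 10.50 in Tub-3L G5 and did not pass (adjusted p = 0.719).

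Of 15 named mitotic genes 9 were lower, 1 was higher and 5 did not pass (median -0.53). APC7, a subunit of the anaphase-promoting complex, had 3.34 and 3.72 in UAS-3L*, against 7.84 and 7.79 in Tub-3L G5 (19.5-fold, adjusted p = 5.04e-09). The kinase gene gwl (Greatwall), which restrains the phosphatase PP2A in mitosis, had 6.79 and 6.65 in UAS-3L* and 9.19 and 9.23 in Tub-3L G5 (5.63-fold, adjusted p = 1.13e-09). APC7 was in the lower quartile of the UAS-3L* arrays and gwl above their median. SAK, the kinase that starts centriole duplication, was higher by 0.43.

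The heat shock list held 3 named genes, all lower. Hsp70Ab, coding for the main inducible chaperone, had 11.62 and 11.64 in UAS-3L* and 13.13 and 13.33 in Tub-3L G5 (3.03-fold, adjusted p = 3.63e-08). Its near-identical copy Hsp70Aa had 3.06 and 3.67 in UAS-3L* and 9.23 and 9.39 in Tub-3L G5 (61.7-fold, adjusted p = 2.89e-07). Since copies of Hsp70 share sequence, the split of signal between them is uncertain. Hsp26, a small heat shock protein, differed by -0.47.

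Immune genes were mixed, with 4 higher, 8 lower and 3 not passing of 15 named. Bomanins are short peptides secreted under Toll signalling that protect flies against fungi and Gram-positive bacteria. BomT1 had 5.46 and 4.52 in UAS-3L*, against 8.56 and 8.46 in Tub-3L G5 (11.5-fold lower, adjusted p = 9.41e-08). BomS2 had 6.71 and 6.75 in UAS-3L* and 8.64 and 8.69 in Tub-3L G5 (3.84-fold lower), and the serpin gene nec, a brake on Toll activation, was 3.51-fold lower. DptB, an antibacterial diptericin, differed by 2.01-fold, on the edge of the threshold. In the opposite direction GNBP3, a sensor of fungal glucans, had 8.45 and 8.51 in UAS-3L* and 6.72 and 6.48 in Tub-3L G5 (3.68-fold higher, adjusted p = 1.42e-08).

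Detoxification and chemosensory families were divided between members. Of 19 named glutathione S-transferases 11 were lower and 5 higher, and the lower ones included 8 of the epsilon class, led by GstE6 (9.47-fold, with 5.96 and 5.74 in UAS-3L* and 9.12 and 9.08 in Tub-3L G5), while GstD4, of the delta class, was 4.89-fold higher. Of 42 genes with symbols of the cytochrome P450 type, 22 were lower and 10 higher. The largest decrease was that of Cyp313a1, with 2.52 and 2.45 in UAS-3L* and 8.46 and 8.37 in Tub-3L G5 (60.8-fold, adjusted p = 5.37e-10), and the largest increase that of Cyp304a1 (4.84-fold). One of the 42, Cyp1, is a cyclophilin, and it did not pass. Of 43 named odorant-binding protein genes, 16 were lower and 15 higher. Members at the ends were Obp56g with 2.59 and 2.71 in UAS-3L*, against 9.70 and 9.86 in Tub-3L G5, and Obp99b with 12.62 and 12.56 in UAS-3L*, against 9.21 and 9.48 in Tub-3L G5 (9.48-fold higher, adjusted p = 5.18e-11). Of 164 named olfactory, gustatory and ionotropic receptors, 37 were higher, 4 were lower and 123 did not pass (median 0.22). Mean signals of this receptor list were 2.84 and 2.85 in UAS-3L* and 2.62 and 2.60 in Tub-3L G5, far into the lower quartile of each array, where signal cannot be told from background.

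**Figure D3:**
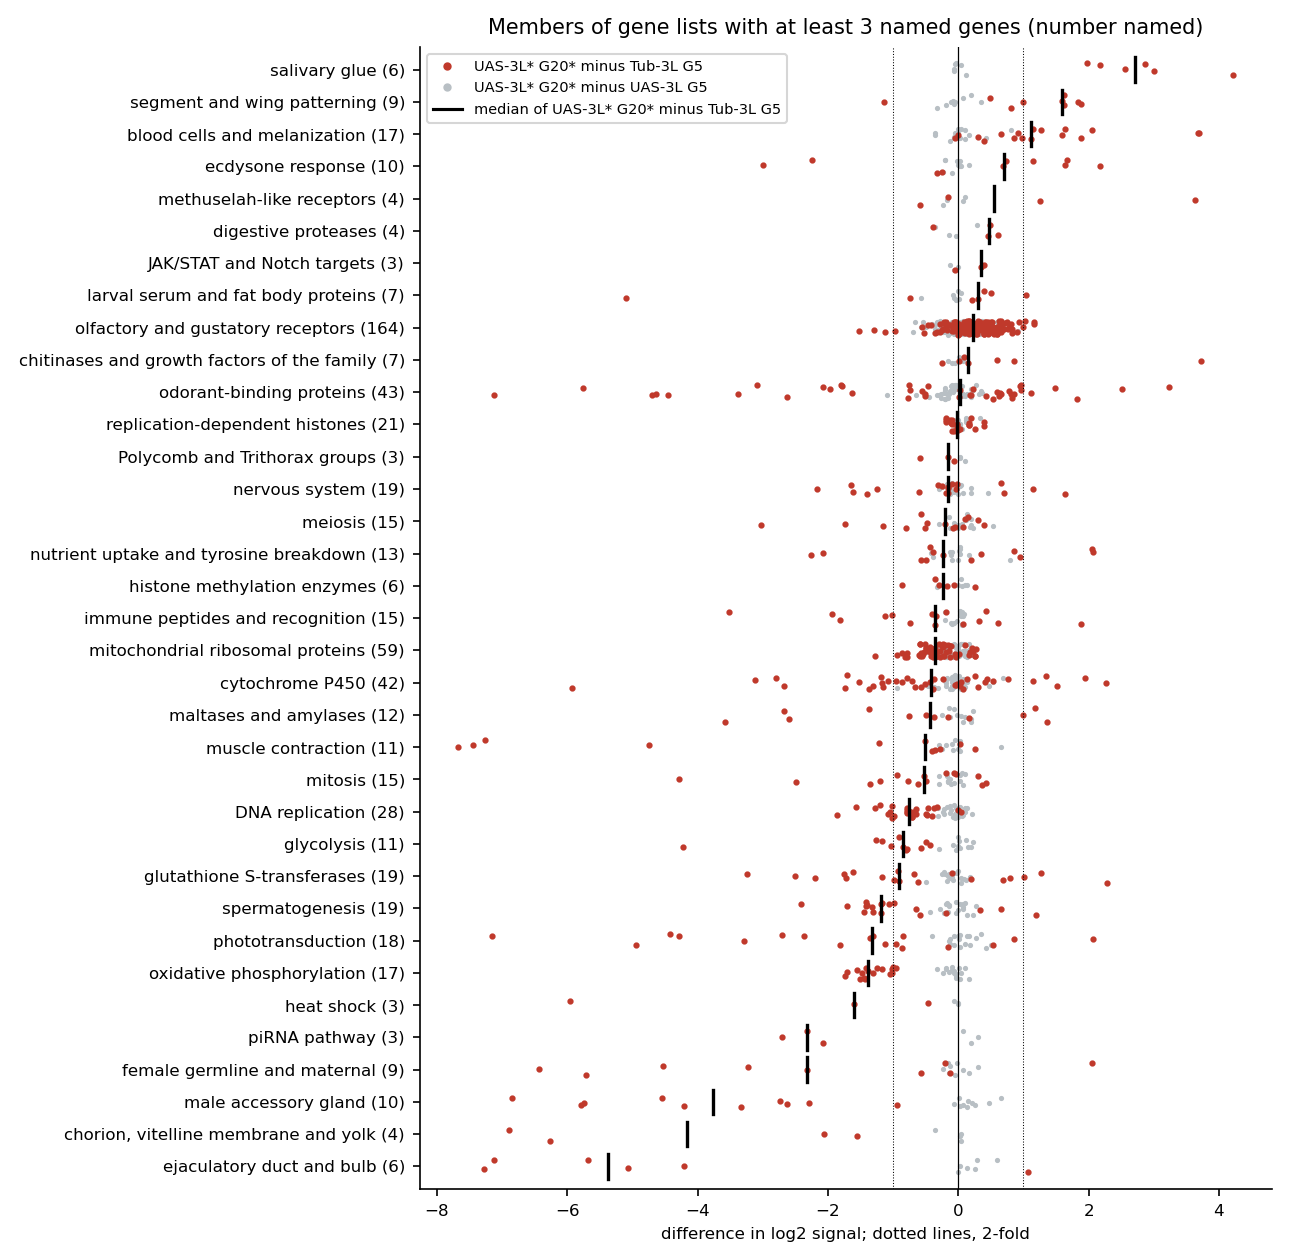
Differences in log2 signal (x axis) of the named members of each gene list (rows, number of members in brackets) for UAS-3L* G20* minus Tub-3L G5 (red, median as a black bar) and UAS-3L* G20* minus UAS-3L G5 (grey). List medians of the red points run from -5.37 (ejaculatory duct and bulb) to 2.72 (salivary glue), while the grey points lie around 0 in each row.

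Among the genes with higher signal in UAS-3L*, the salivary glue genes moved together. Late in larval life the salivary glands fill with glue proteins, which later fix the pupa to its support, under the control of ecdysone. All 6 named genes were higher, at a median of 2.72 and a range of 1.97 to 4.22. Sgs1 had 10.01 and 10.01 in UAS-3L*, against 5.85 and 5.73 in Tub-3L G5 (18.6-fold, adjusted p = 3.77e-09). The signals of Sgs8 were 12.35 and 12.28 in UAS-3L* and 9.37 and 9.26 in Tub-3L G5 (8-fold, adjusted p = 8.70e-11). Both UAS-3L* arrays were above both Tub-3L G5 arrays in all 6 genes, and in Tub-3L G5 the dimmest, Sgs1 and Sgs4, were still above the lower quartile.

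Genes of blood cells and melanization were higher as a list, with 15 of 17 named members higher, 0 lower and 2 not passing (median 1.12). Melanization deposits black pigment at wounds and around foreign bodies through phenoloxidases, which are activated by proteases and held back by serpins. Pxd, a peroxidase, had 9.62 and 9.64 in UAS-3L*, against 5.82 and 6.07 in Tub-3L G5 (12.9-fold, adjusted p = 8.79e-10). Spn43Aa, a serpin, had 9.90 and 9.95 in UAS-3L* and 6.07 and 6.43 in Tub-3L G5 (12.8-fold, adjusted p = 1.61e-10). PPO1, the prophenoloxidase of crystal cells, had 8.6 and 8.63 in UAS-3L* and 7.68 and 7.58 in Tub-3L G5, a 1.98-fold difference just under the 2-fold threshold (adjusted p = 3.35e-06). Of receptors on blood cells, the surface protein He was 4.18-fold and the phagocytic receptor eater 3.03-fold higher. Stat92E, the transcription factor of the JAK/STAT pathway that acts in blood cell tumors, had 10.33 and 10.46 in UAS-3L* and 10.40 and 10.49 in Tub-3L G5 and did not pass (adjusted p = 0.65).

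Patterning genes showed increases in 8 of 9 named members, and the ninth, mamo, was lower. They are transcription factors that assign fates to segments and imaginal discs, the larval precursors of adult structures. Scr, the Hox gene of the labial and first thoracic segments, had 6.56 and 6.45 in UAS-3L*, against 4.85 and 4.89 in Tub-3L G5 (3.10-fold, adjusted p = 2.72e-06). The signals of bi (optomotor-blind), which acts in the centre of the wing disc, were 7.92 and 7.84 in UAS-3L* and 6.09 and 5.98 in Tub-3L G5 (3.59-fold, adjusted p = 7.43e-08). zfh2, needed in the proximal wing, was 3.69-fold and the Pax6 gene toy 3-fold higher. mamo, a zinc finger gene with a role in germ cells, had 7.59 and 7.72 in UAS-3L* and 8.79 and 8.81 in Tub-3L G5 (2.21-fold lower, adjusted p = 3.92e-06). No UAS-3L* array overlapped a Tub-3L G5 array in any gene of the list, which was also so for 1871 of the 2249 named genes. fd96Cb, a forkhead factor outside the list, was 10.1-fold higher.

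Genes of cuticle turnover were few among those named. Cht10, a chitinase that digests old cuticle at molts, had 9.53 and 9.64 in UAS-3L*, against 5.73 and 5.99 in Tub-3L G5 (13.3-fold, adjusted p = 7.34e-10). The larval cuticle protein Lcp65Ag2 had 7.94 and 8.06 in UAS-3L* and 5.31 and 4.79 in Tub-3L G5 (7.75-fold higher), while the adult cuticle protein Acp1 had 3.98 and 3.91 in UAS-3L* and 6.05 and 6.23 in Tub-3L G5 (4.56-fold lower). These 2 cuticle proteins thus differed in opposite directions.

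The ecdysone response list had 6 higher, 3 lower and 1 not passing of 10 named genes. The steroid ecdysone times the molts through its receptor EcR and a cascade of nuclear receptors. EcR was 2.22-fold higher, and Hr3, an early-late receptor of the cascade, had 7.96 and 7.99 in UAS-3L* and 6.27 and 6.34 in Tub-3L G5 (3.18-fold higher, adjusted p = 1.08e-06). ftz-f1, which acts after the ecdysone pulse has passed, had 6.74 and 6.76 in UAS-3L*, against 8.97 and 9.04 in Tub-3L G5 (4.75-fold lower, adjusted p = 6.17e-09), and Hr38 was 7.98-fold lower. The glue gene Sgs4 is counted in this list too. According to the paper the larvae were at approximately the same stage, and a difference in stage between pools was not tested.

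The largest increases of single genes were those of CG14664 (20.4-fold, with 10.14 and 10.01 in UAS-3L* and 5.65 and 5.80 in Tub-3L G5), Sgs1, CG8492 (15.5-fold) and CG13722 (14.9-fold). mthl8, a receptor of the methuselah-like family, had 6.36 and 6.28 in UAS-3L*, against 2.54 and 2.84 in Tub-3L G5 (12.4-fold, adjusted p = 1.87e-09). In w1118 mthl8 was at 2.74 and 3.03, so that its signal in UAS-3L* was 10.8-fold higher than in that strain too (adjusted p = 2.90e-08), and it reached 6.61 and 6.37 in UAS-3L G5. The esterase gene Est-P was 10.5-fold higher, and the copper importer Ctr1B 4.17-fold higher.

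The few named genes for histone modification differed by less than 2-fold. Of 6 named histone methylation enzymes, 3 were lower, none at least 2-fold, and 3 did not pass (median -0.24). Kdm4A, which demethylates lysines 9 and 36 of histone H3, had 7.39 and 7.41 in UAS-3L*, against 8.29 and 8.23 in Tub-3L G5 (1.82-fold lower, adjusted p = 5.32e-05). The H3K4 demethylase gene Su(var)3-3 had 6.92 and 7.23 in UAS-3L* and 7.33 and 7.54 in Tub-3L G5 (1.28-fold lower, adjusted p = 0.0454). The gene for the H3K27 methyltransferase, E(z), had 6.74 and 6.91 in UAS-3L* and 6.80 and 6.98 in Tub-3L G5, and these values overlapped (adjusted p = 0.612). Among 21 named replication-dependent histone genes, whose many copies share probe sequence, 2 were higher and 19 did not pass (median -0.02), and of 3 named Polycomb and Trithorax genes only skd passed (-0.59). Of 19 named nervous system genes 6 were lower, led by the GABA-synthesizing enzyme gene Gad1 (4.51-fold), and 4 were higher, elav among them (2.20-fold). These numbers lie near the shares of all named genes, 35.4% lower and 24.2% higher.

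Where UAS-3L* arrays lay relative to every other group was measured as the median absolute difference in log2 signal between 2 arrays. Between the 2 UAS-3L* arrays it was 0.129. From UAS-3L* to UAS-3L G5 arrays it was 0.138 to 0.140, a little more than this and close to the distance between the 2 UAS-3L G5 arrays (0.139). Arrays of UAS-3L G1 and UAS-3L G5, both without the driver, were farther from each other, at 0.232 to 0.235. The description of UAS-3L* also gives generation 5, and the part of generation in these distances was not tested. The other distances from UAS-3L* were 0.228 to 0.236 for UAS-3L G1, 0.255 to 0.265 for Tub-3L G1, 0.293 to 0.297 for Tub-3L G2, 0.321 to 0.326 for w1118, 0.372 to 0.378 for Tub-3L G4, 0.500 to 0.506 for Tub-3L G5 and 0.595 to 0.607 for Tub-3L G5P. Arrays of Tub-3L G1 and G2, with the driver, were thus nearer to UAS-3L* than those of w1118, which has neither driver nor transgene. Pairs of a UAS-3L* and a Tub-3L G5 array differed at least 2-fold in 3904 to 3991 probe sets, pairs with a UAS-3L G5 array in 149 to 201, and the UAS-3L* pair itself in 168.

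**Figure D4:**
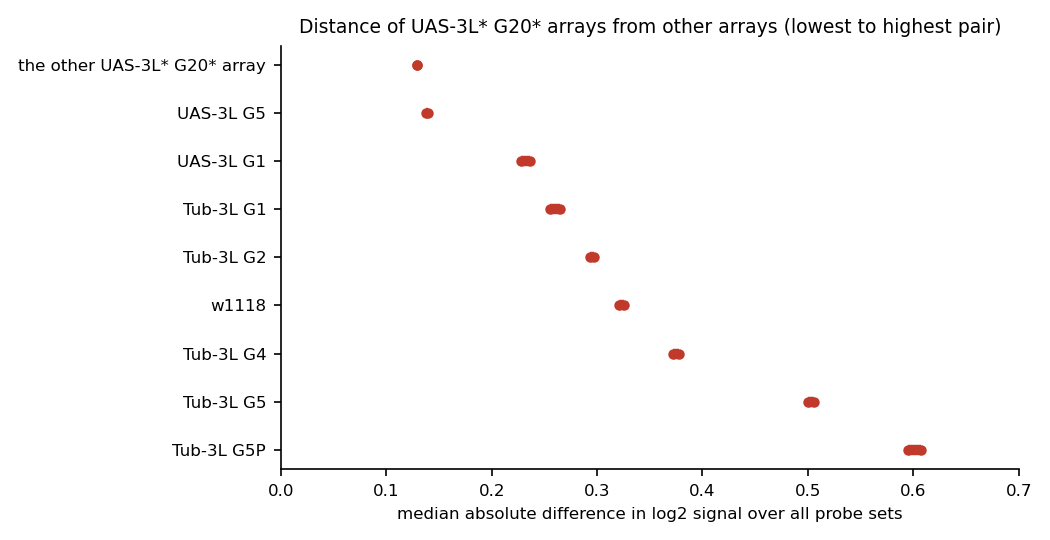
Median absolute difference in log2 signal over all probe sets (x axis) between each UAS-3L* G20* array and the arrays of every group (rows), from the lowest to the highest pair. Arrays of UAS-3L G5 (0.138 to 0.140) lie nearest after the other UAS-3L* G20* array (0.129), Tub-3L G1 (0.255 to 0.265) and G2 (0.293 to 0.297) lie nearer than w1118 (0.321 to 0.326), and those of Tub-3L G5 (0.500 to 0.506) and Tub-3L G5P (0.595 to 0.607) lie farthest.

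Against UAS-3L G5, 0 of 16322 probe sets (0%) were called in limma, with 904 at an unadjusted p under 0.05 and 46 at least 2-fold apart at any p. The 0 became 1 with a mean-variance trend and 1 to 4 when single arrays of the 2 groups were left out, except the first UAS-3L* array, without which it was 0. A p that misses the threshold does not show that the groups were equal, and the median SE of a difference was 0.149 on the log2 scale. Against UAS-3L G1, 271 probe sets (1.66%) were called, 144 higher (0.882%) and 127 lower (0.778%), and against w1118, 1055 (6.46%), 433 higher (2.65%) and 622 lower (3.81%). Tub-3L G5 against UAS-3L G5 gave 3720 (22.8%), 1992 higher (12.2%) and 1728 lower (10.6%). These comparisons share arrays with the main one, so that they are set side by side and no overlap is drawn.

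The 1724 probe sets that were higher in UAS-3L* had a median signal of 7.30 and 7.32 on its arrays, against 5.50 and 5.52 on the Tub-3L G5 arrays, and 7.37 and 7.32 on the UAS-3L G5 arrays. For the 2003 lower ones the medians were 5.03 and 5.07 in UAS-3L*, against 7.11 and 7.16 in Tub-3L G5, with 5.11 and 5.14 in UAS-3L G5. Of all 16322 probe sets, 46 were 2-fold or more away from UAS-3L G5 at any p, 322 from UAS-3L G1 and 1102 from w1118. Of the 1724 the numbers were 6, 109 and 373, and of the 2003 they were 5, 42 and 245. Act88F, for example, was at 3.65 and 3.15 and Sgs1 at 9.84 and 9.95 in UAS-3L G5, and Pxd at 9.68 and 9.61.

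Among the genes that differed between UAS-3L* and w1118 or UAS-3L G1, PPO1 was 3.50-fold lower in UAS-3L* than in w1118 (8.6 and 8.63 in UAS-3L*, against 10.41 and 10.44 in w1118, adjusted p = 1.13e-07), although higher than in Tub-3L G5, and it was not called against UAS-3L G1 (log2 -0.49). The tyrosine breakdown gene hgo was lower in UAS-3L*, at 4.84 and 4.93, than in Tub-3L G5 (6.97 and 6.95) and than in w1118 (7.12 and 7.36), with 5.38 and 5.21 in UAS-3L G5. ninaD and the vitamin transporter gene Smvt were lower than in w1118 by 5.31-fold and 5.11-fold. Of the 13 named genes of nutrient uptake and tyrosine breakdown, 5 were called against UAS-3L G1 and 6 against w1118. Glycolysis and oxidative phosphorylation genes had medians of -0.88 and -0.76 against w1118, where 4 of 11 and 6 of 17 were called. Against UAS-3L G1 both medians were -0.34 with 0 called in either list, and against UAS-3L G5 they were 0.01 and -0.06. Muscle genes had a median of -1.04 against w1118, with 5 of 11 called, of -0.31 against UAS-3L G1, with 0 called, and of -0.05 against UAS-3L G5. The 2 w1118 arrays were themselves uneven, with mean signals of 8.47 and 7.92 over the muscle list. Their summed linear signals of the adult organ markers were 449 and 128.

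Arrays outside the main comparison were set against each other as Tub-3L G4 against UAS-3L G1, in which 2021 probe sets (12.4%) were called, 1230 higher (7.54%) and 791 lower (4.85%). At the adjusted p alone, 22.6% of probe sets were higher and 21% lower there. Of the 2003 probe sets lower in UAS-3L*, 1006 (50.2%) were called higher in Tub-3L G4, which is 81.8% of those that were higher there, and 0 were called lower. Of the 1724 higher in UAS-3L*, 648 (37.6%) were called lower in Tub-3L G4, or 81.9% of its 791, and 44 were called higher in both. The 6 named genes among the 44 are CG43153, CG43315, CG17362, CG43082, CG43179 and CG43133, listed because of this pattern. For CG43179 the signals were 7.18 and 7.06 in UAS-3L*, 3.82 and 4.41 in Tub-3L G5, 7.99 and 8.10 in Tub-3L G4, and 6.52 and 6.66 in UAS-3L G1. In Tub-3L G5P against UAS-3L G1, 4724 (28.9%) were called, 2486 higher (15.2%) and 2238 lower (13.7%), and 33.6% were higher and 28.7% lower at the adjusted p alone. The lower set of UAS-3L* shared 1030 probe sets (51.4%, or 41.4% of those higher in Tub-3L G5P) and the higher set 1335 (77.4%, or 59.7% of those lower there) in the opposite direction, and 18 were called in the same direction. Tub-3L G4, G5 and G5P larvae come from 1 line over successive generations, so that these arrays are separate samples but not separate lines. All 3 also share the high adult organ signal given above, whose part in these overlaps was not tested, and the driver cannot be told apart from it here.

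**Figure D5:**
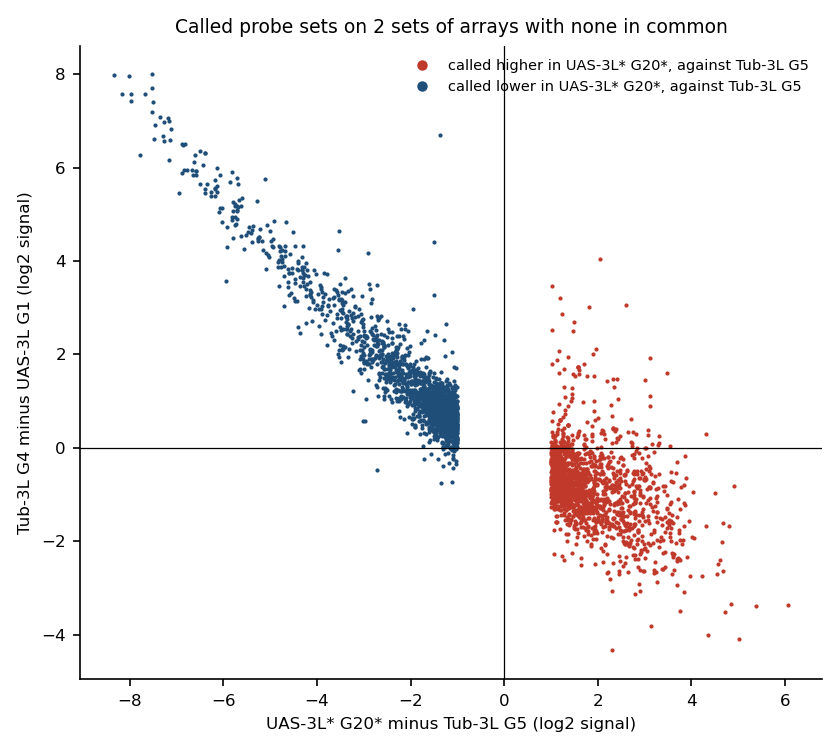
Difference in log2 signal for UAS-3L* G20* minus Tub-3L G5 (x axis) and for Tub-3L G4 minus UAS-3L G1 (y axis) of the 3727 called probe sets. The 2003 lower ones (blue) lie above 0 on the y axis except for 24, and of the 1724 higher ones (red) 1555 lie under it and 169 above it. Over all 16322 probe sets, 47.8% lay above 0 in this comparison of Tub-3L G4 with UAS-3L G1 and 52.2% under it.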

How the data were processed

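RNA pools had been hybridised to Affymetrix Drosophila Gene 1.1 ST arrays. The authors deposited log2 signals, made by RMA at the gene level (Affymetrix Expression Console 1.3 in the submitters' processing notes), and these were used unchanged for 18 arrays and 16322 probe sets. RMA gives arrays like distributions, which can hide a shift of all genes. A second table, with 9 columns of averages, was not used. Symbols came from the array's annotation, whose genome build no source used here states. Of the 50 symbols with several probe sets, the probe set of highest mean was taken.

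One limma 3.58.1 model (R 4.3.3, lmFit and eBayes) held a mean for each of 9 groups, and adjustment ran over all probe sets of a comparison. Members of lists were counted by adjusted p, whatever their fold. Named genes are the 15 largest increases and 15 largest decreases with arrays that do not overlap, up to 5 members of each list by smallest p, and genes named by the paper or an earlier account. Other list members are examples chosen after their values were seen. The members, the 38 lists and the tests were chosen with earlier results of these data known. The model was tested on simulated data. With 2 arrays per group, their number limits the precision. Alternatives were other scalings, filters and models, the methods' t-test, the replicate number as a block, and leaving out each array.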

Additional observations from a re-analysis of the deposited data

How the results depend on the processing

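The 3727 calls of UAS-3L* against Tub-3L G5 stayed between 3036 and 3780 under the 2 groups alone, centred arrays, scaling to RpLP0, quantile normalisation, removal of the dimmest 25%, limma-trend and the replicate block (3732), and between 3738 and 3773 with single arrays left out (higher 1711 to 1775, lower 1987 to 2040). The methods' t-test gave 3455 unadjusted and 2740 after Benjamini-Hochberg adjustment. Leaving out 458 copied rows (3657) and fitting 5 groups alone (3728) were added after seeing the data. Fewer probe sets tested gave 539 calls among named ones (188 higher, 351 lower). Without a fold threshold 9290 passed (4400 higher, 4890 lower), of which 5645 were opposite and 173 alike in Tub-3L G4 against UAS-3L G1, and 6126 opposite and 724 alike in Tub-3L G5P, against 1654, 44, 2365 and 18 with it.

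Centring moved the median difference of all probe sets to 0.155 from 0.015, and the calls to 2120 higher and 1660 lower. Of the 133 called genes among the 187 named by rule, 4 lost and 3 others gained the call (gained PPO1, Cht4 and Or35a, lost dpa, RnrL, DptB and S-Lap2). Leaving out the second UAS-3L* array lost 5 calls, the most of any array (Vm26Ac, dpa, DptB, Adgf-A and spd-2). None of the 133 called genes reversed, and changes of sign among the uncalled named genes were not counted. The median of the histones reversed to 0.122 centred, 0.004 scaled to RpLP0 and 0.03 without the second UAS-3L* array (-0.066 to 0.03 with single arrays left out), and that of the odorant-binding proteins to -0.042 under quantile normalisation, -0.008 without the second UAS-3L* array and -0.087 without the second Tub-3L G5 array (-0.087 to 0.121), and it was 0.804 without dim probe sets. Against UAS-3L G5 the count was 0 centred and blocked, 1 with limma-trend and 0 to 4 with single arrays left out (UAS-3L* arrays 0 and 4, UAS-3L G5 arrays 1 and 2). It was 252 to 323 against UAS-3L G1, 1069 to 1149 against w1118 and 3738 to 3785 for Tub-3L G5 against UAS-3L G5 with single arrays left out. The cause of these shifts was not tested.

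Same-numbered arrays of UAS-3L* and Tub-3L G5 did not deviate together (r = -0.0062 over probe sets), which cannot exclude that the numbers pair samples. The replicate block changed no call of a named gene. Signals in the lower quartile limit the size of the largest folds, and 2 arrays per group limit every SE.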
